A study of Drosophila melanogaster with 4 samples.

Results

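The genes of bone morphogenetic protein (BMP) signalling were examined in RNA from testes of Drosophila melanogaster. The set held 10 genes, given by their FlyBase symbols for their place in the pathway, by a rule that used no measured value, although earlier results of these data were known when they were picked. They were the ligands dpp and gbb, the type I receptors tkv, sax and babo, the type II receptors put and wit, the Smads Mad and Med, and the inhibitory Smad Dad. Counts were matched for 9 of the 10 genes among 17559 gene IDs, and all 9 were among the 10854 genes with enough reads to be tested. Med, the partner Smad, was not analysed here.

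A BMP ligand brings together type I and type II receptor kinases at the cell surface, and the type I receptor then phosphorylates the Smad protein Mad. Phosphorylated Mad enters the nucleus with Med and changes transcription, and the inhibitory Smad Dad, itself switched on by the pathway, dampens the signal. In the fly testis, Dpp and Gbb from the somatic hub and cyst cells act on germline stem cells, where active Mad keeps the gene bam silent. Bam protein later ends the proliferation of spermatogonia, and it binds Caf40, a part of the CCR4-NOT complex that shortens poly(A) tails.

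Poly(A) RNA was sequenced in 4 libraries, with 2 for bam mutant males and 2 for males in which the germ line expressed a hairpin against Caf40, each from 150 pairs of testes with, per the study's methods, the seminal vesicles attached. The bam mutant males carried the alleles bam1 and bam86 over each other and, per the study's methods, a CyO balancer. They grew at 22 °C until pupae of middle and late stages had formed. These were heat shocked at 37 °C for 30 min although they had no heat-shock construct, then kept at 25 °C, and the testes were taken 48 h later. The labels give no adult age for them, while the study's methods for this experiment give males of 0 to 2 days. The deposited files of these libraries bear names that say wild type and 0 h past the heat shock, which goes against the labels in both genotype and time, and every bam mutant value below rests on the labels. Spermatid markers, which testes with differentiated germ cells express strongly, summed to 11.4 and 13.3 CPM (counts per 1000000 gene counts) in them. The knockdown males carried the hairpin Caf40RNAi(BL67987) over nosGAL4, a driver active in germline stem cells and early spermatogonia. Per the study's methods, the driver strains also held UAS-Dicer2. Knockdown animals were kept at 25 °C for 3 days and then at 29 °C, and males were dissected 0 to 2 days after eclosion. Genotype, rearing temperature, heat shock and strain differed together, so their effects cannot be told apart. Each difference below is between these genotypes and not from wild type. The labels do not say that the libraries of a genotype came from separate crosses, and p-values here measure only the spread between these libraries.

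The bam mutant libraries held 95125694 to 118209171 gene counts and the knockdown libraries 26984758 to 30411385, a depth ratio of 3.72. Levels are given in CPM after TMM scaling (trimmed mean of M-values), and 3 counts, the limit that a count of 0 allows, corresponded to at most 0.103 CPM. Caf40 itself, annotated as Rcd-1 (X:19638767-19640746), had 206 ± 2.54 CPM (SD, n = 2) in bam mutant libraries but 14.8 ± 1.91 CPM in knockdown libraries, as the labels imply. Of 11 germline markers tested all 11 were called higher in the knockdown (summed level 2213 to 2253 CPM in the bam mutant and 3361 to 3757 CPM in the knockdown), and of 11 cyst and hub markers 8 were called lower and 1 higher (591 to 628 CPM and 352 to 398 CPM). None of these germline, cyst and hub markers was at 0 in all libraries. Muscle markers were called lower in 7 of 9 cases, and 9 of 9 accessory gland markers and 7 of 8 heat shock genes were called higher. Of 8 spermatocyte markers tested 4 were called higher and 1 lower. Over all genes tested 30.7% were called higher and 33% lower. The part of these marker shifts in the results below was not tested. The knockdown libraries differed from each other in 2 lists, with a summed spermatid marker level of 4.49 CPM in knockdown 1 and 156 CPM in knockdown 2, and an accessory gland level of 383 and 44.5 CPM. Calls were therefore repeated without each library in turn. In these whole-tissue libraries, fewer cells of a type and less RNA per cell cannot be told apart.

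The pathway did not move in one direction between the genotypes. Both ligands, the receptors tkv, babo and wit, and the inhibitory Smad Dad were lower in the Caf40 knockdown than in the bam mutant, Mad was higher, sax was higher except when libraries were scaled on germline markers, and put was not called. A gene was called when edgeR's quasi-likelihood test gave it a p under 0.05 after Benjamini-Hochberg adjustment across all genes tested. By that measure 8 of the 9 genes were called, where 63.7% of all genes tested were. Called higher were 2 genes, against 30.7% of all genes, with neither higher by 1 or more on the log2 scale, as 8.07% of all genes were, and called lower were 6 genes, against 33% of all genes. The libraries of the genotypes did not overlap for 8 genes, which was also true of 83.4% of all genes. Being called was thus common among all genes and says little by itself. The median log2 fold change of the knockdown over the bam mutant was -0.64 over the 9 genes and 0.03 over all genes tested. A fall of 1 or more on the log2 scale was called for dpp, gbb, wit and Dad, 4 of 9 genes, where 18.7% of all genes fell that far. Without any 1 of the 4 libraries the same 8 genes were called in the same directions.

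**Figure D1:**
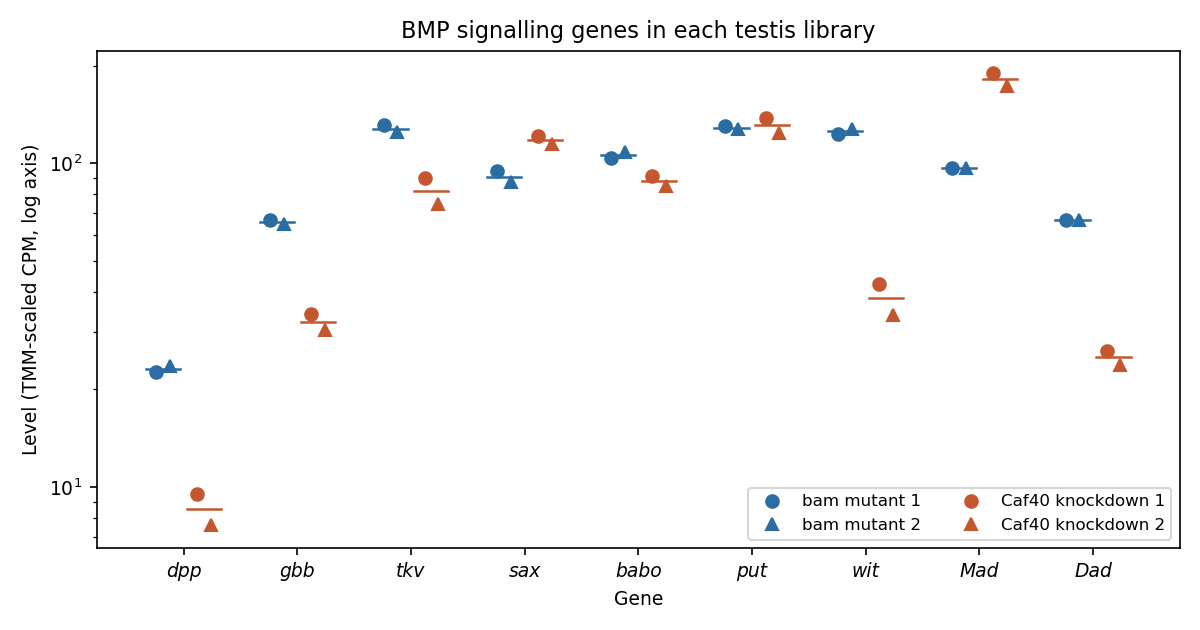
Level of each BMP signalling gene in each library, in TMM-scaled CPM on a log axis, with bars at the mean of the 2 libraries of a genotype. The symbols of the genotypes are apart for every gene but put, with the knockdown above the bam mutant for sax and Mad and below it for the other 6.

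Both ligands were lower in the knockdown. The dpp gene (FBgn0000490, 2L:2428372-2459823, plus strand) encodes the best studied BMP of the fly, the short-range signal to the stem cells. Its levels were 22.7 and 23.7 CPM in bam mutant 1 and 2 and 9.51 and 7.61 CPM in knockdown 1 and 2, the latter from 286 and 221 counts. Every knockdown library lay far below every bam mutant library, and the mean fell to 36.9% of that in the bam mutant (23.2 ± 0.699 to 8.56 ± 1.34 CPM, SD, n = 2 each). The log2 fold change was -1.44 (SE 0.13, 95% interval -1.77 to -1.11, edgeR quasi-likelihood test, Benjamini-Hochberg adjusted p = 0.000421).

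The gbb gene (FBgn0024234, 2R:23851562-23853247, plus strand) encodes a BMP that acts beside Dpp on germline stem cells and is also the main signal from muscle to motor neuron at the larval neuromuscular junction. It measured 66.9 and 64.7 CPM for bam mutant 1 and 2 and 34.1 and 30.4 CPM for knockdown 1 and 2. The groups did not overlap, and the knockdown mean was 49.0% of the bam mutant mean (65.8 ± 1.52 and 32.3 ± 2.60 CPM). The log2 fold change of gbb was -1.03 (SE 0.08, 95% interval -1.22 to -0.83, edgeR adjusted p = 0.00023). Of the CPM per kilobase of exon that the pair held together, gbb made up 89.4% to 90.1% in the bam mutant libraries and 91.7% to 92.5% in the knockdown libraries. Both ligands thus fell while gbb stayed the more abundant transcript per length in every library.

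The type I receptors went different ways. The tkv gene (FBgn0003716, 2L:5219000-5271384, minus strand) encodes the main type I receptor for Dpp. Its levels were 131 and 125 CPM in bam mutant 1 and 2 and 89.8 and 74.6 CPM in knockdown 1 and 2. All knockdown values were below all bam mutant values, with means of 128 ± 4.36 and 82.2 ± 10.8 CPM. The log2 fold change was -0.64 (SE 0.10, 95% interval -0.88 to -0.39, edgeR adjusted p = 0.00265). Exons of tkv overlap those of CR14033 and TpnC25D on the other strand, and reads of the other strand made up 10.2% to 10.3% of the stranded reads over tkv in the bam mutant and 14.0% to 14.8% in the knockdown. The opposite-strand level over tkv was 15.1 and 14.2 CPM in bam mutant 1 and 2 and 14.6 and 13.0 CPM in knockdown 1 and 2. In the deposited unstranded counts tkv was also called lower, at -0.66, but those counts are not the sum of both strands. The sum itself was not tested.

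The sax gene (FBgn0003317, 2R:7806484-7810067, plus strand) encodes the type I receptor that favours Gbb. It stood at 94.2 and 87.5 CPM for bam mutant 1 and 2 and at 121 and 115 CPM for knockdown 1 and 2. Here the knockdown libraries were the higher pair, with means of 118 ± 4.49 CPM, above 90.9 ± 4.74 CPM in bam mutant libraries. The log2 fold change of sax was 0.38 (SE 0.06, 95% interval 0.22 to 0.53, edgeR adjusted p = 0.00376), but it turned to -0.32 (adjusted p = 0.00515) when libraries were scaled on the 11 germline markers instead of all genes. That scaling moved the median of all genes by -0.69.

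The babo gene (FBgn0011300, 2R:8952339-8962796, plus strand) encodes the type I receptor of the activin branch, which signals mainly through the other receptor-activated Smad, Smox. Its levels were 103 and 108 CPM in bam mutant 1 and 2 and 91.1 and 85.0 CPM in knockdown 1 and 2, the smallest of the called changes among the 9 genes. The groups did not overlap, at means of 106 ± 3.41 and 88.1 ± 4.31 CPM. The log2 fold change was -0.26 (SE 0.06, 95% interval -0.41 to -0.11, edgeR adjusted p = 0.0122). Once the trend of fold change with exonic length was removed, it was -0.09 and no longer called (adjusted p = 0.503).

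The type II receptors differed sharply from each other. The put gene (FBgn0003169, 3R:14619030-14625703, minus strand) encodes the type II receptor used by Dpp in most tissues. It measured 130 and 127 CPM for bam mutant 1 and 2 and 138 and 124 CPM for knockdown 1 and 2. The knockdown values lay on either side of the bam mutant values (129 ± 2.20 and 131 ± 10.2 CPM). Its log2 fold change was 0.02 (SE 0.07, edgeR adjusted p = 0.766), with a 95% interval of -0.15 to 0.20. Scaling decided its call: put was called higher at 0.17 (adjusted p = 0.0112) by upper quartile scaling and at 0.11 (adjusted p = 0.0294) by library size alone, and lower at -0.67 (adjusted p = 8.6e-05) by scaling on the germline markers.

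The wit gene (FBgn0024179, 3L:4064152-4071717, minus strand) encodes the type II receptor best known from motor neurons, where it receives Gbb. Its levels were 123 and 128 CPM in bam mutant 1 and 2 and 42.3 and 34.1 CPM in knockdown 1 and 2. No other member of the set differed by as much, and the groups were widely separated (126 ± 3.27 and 38.2 ± 5.82 CPM). The level was 3.28-fold lower in the knockdown, a log2 fold change of -1.72 (SE 0.11, 95% interval -1.98 to -1.45, edgeR adjusted p = 0.000123), which was lower than that of all but 10.1% of the genes tested. An exon of dib overlaps wit on the other strand, and reads of that strand made up at most 0.503% of the stranded reads over wit.

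The receptor-activated Smad rose while the inhibitory Smad fell. The Mad gene (FBgn0011648, 2L:3146056-3159643, minus strand) encodes the Smad that BMP receptors phosphorylate. It measured 96.6 and 96.8 CPM for bam mutant 1 and 2 and 189 and 173 CPM for knockdown 1 and 2. Each knockdown library was well above the bam mutant pair, with a mean 1.87-fold higher (96.7 ± 0.0986 and 181 ± 11.4 CPM). The log2 fold change of Mad was 0.91 (SE 0.06, 95% interval 0.75 to 1.06, edgeR adjusted p = 0.000178). It was the only one of the 9 genes that was also called higher, at 0.21, when libraries were scaled on the germline markers. The log2 fold changes of those 11 markers ran from 0.36 to 1.10. Among them AGO3 (0.91), ovo (0.93) and spn-E (1.10) rose at least as much as Mad.

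The Dad gene (FBgn0020493, 3R:17054007-17070408, plus strand) encodes the inhibitory Smad and is widely used as a readout of BMP signalling. It stood at 66.9 and 66.8 CPM in bam mutant 1 and 2 and at 26.4 and 23.8 CPM in knockdown 1 and 2. The bam mutant libraries were nearly equal, and both knockdown libraries were far below them (66.8 ± 0.109 and 25.1 ± 1.78 CPM). Dad was 2.66-fold lower in the knockdown, a log2 fold change of -1.41 (SE 0.07, 95% interval -1.60 to -1.23, edgeR adjusted p = 7.97e-05). RNA levels of Mad and Dad do not measure phosphorylated Mad, which these libraries cannot show.

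**Figure D2:**
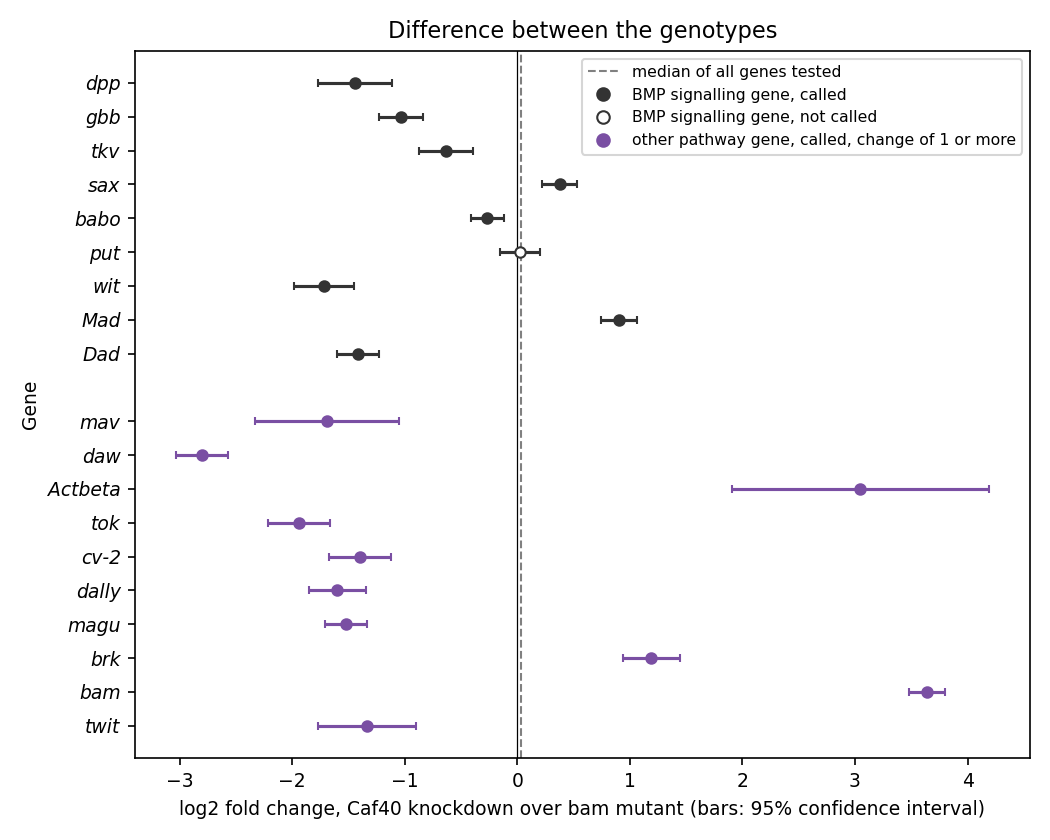
Log2 fold change of the Caf40 knockdown over the bam mutant with its 95% interval, for the 9 BMP signalling genes and for the other pathway genes called with a change of 1 or more on the log2 scale. The dashed line is the median of all genes tested (0.03), and the values run from -2.80 for daw to 3.64 for bam.

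Ratios between genes of the same library do not depend on the scaling between libraries, so 6 pairs of genes with related roles were compared by their CPM per kilobase of exon. In whole testes such ratios can also move with the mix of cells, and the part of cell composition in them was not tested. The ratio of Mad, the signal transducer, to Dad, its inhibitor, was 1.65 and 1.66 in bam mutant 1 and 2 but 8.22 and 8.31 in knockdown 1 and 2. It was 4.99-fold higher in the knockdown, a shift of 2.32 on the log2 scale that was far larger than the spread within either genotype (SD 0.00382 and 0.0111). The ratio of put to wit rose likewise, from 1.11 and 1.05 to 3.43 and 3.82. Of the type II receptor transcripts per length, put made up 51.1% to 52.6% in bam mutant libraries and 77.4% to 79.2% in knockdown libraries. Among the type I receptors, sax over tkv went from 1.12 and 1.09 to 2.09 and 2.38. The share of sax among the 3 type I receptors was 38.3% to 39.8% in the bam mutant and 52.6% to 54.5% in the knockdown, whereas that of tkv was 35.2% to 35.7% and then 22.9% to 25.2%. The remaining pairs shifted less, by 0.64 on the log2 scale for sax over babo, 0.42 for gbb over dpp and 0.38 for babo over tkv. In all 6 pairs the genotypes did not overlap, as was true of 83.4% of single genes with TMM scaling. The pairs among the 3 type I receptors share genes, so the 6 pairs are not independent. The share among other pairs of genes was not computed, and the count says little by itself. The exact two-sided permutation test gave p = 0.333 for each, before and after adjustment over the 6 pairs, which is the smallest value that 2 libraries against 2 can give and cannot pass 0.05.

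**Figure D3:**
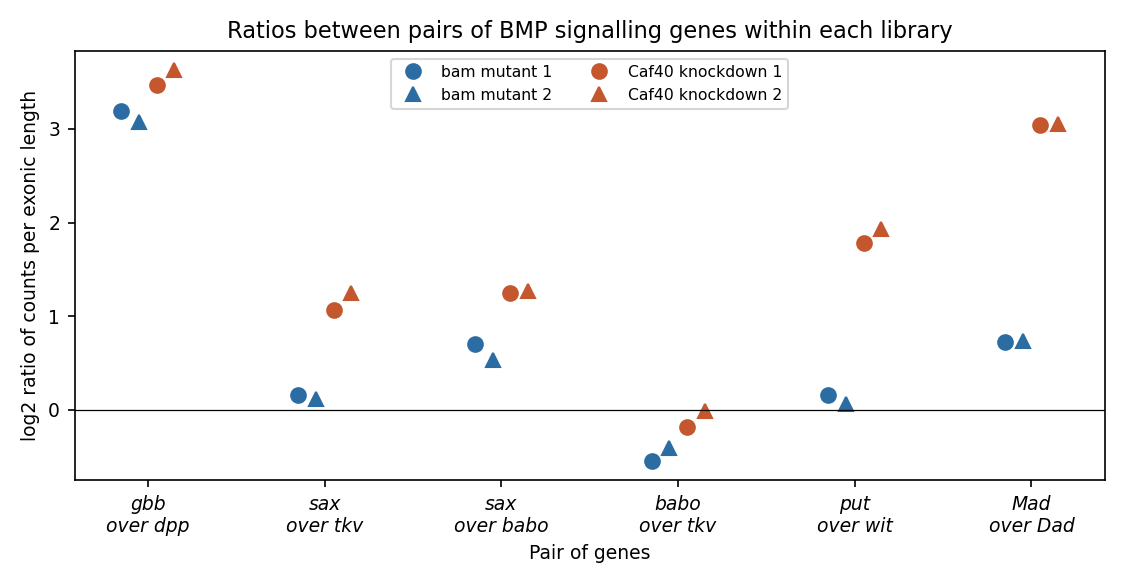
Log2 ratio of counts per exonic length for 6 pairs of BMP signalling genes, 1 symbol per library. The knockdown symbols lie above the bam mutant symbols for all pairs, and the gap is widest for Mad over Dad, at 2.32.

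The order of transcript levels per length also differed. In the bam mutant, gbb had the highest level of the 9 genes at 39.0 ± 0.899 CPM per kilobase of exon (SD, n = 2). Next came put at 32.1 ± 0.548 and sax at 31.7 ± 1.65, whose libraries overlapped, and then wit at 29.8 ± 0.776, tkv at 28.8 ± 0.984 and Mad at 28.3 ± 0.0289, in which each neighbour overlapped the next. Then followed babo at 20.7 ± 0.667, Dad at 17.1 ± 0.0279 and dpp at 4.45 ± 0.134 CPM per kilobase, each apart from its neighbours. The receptors other than babo thus lay close to Mad, with dpp well under all of them.

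In the knockdown, Mad came first at 53.1 ± 3.35 CPM per kilobase of exon, ahead of sax at 41.2 ± 1.57 and put at 32.7 ± 2.54. After these stood gbb at 19.1 ± 1.54, tkv at 18.5 ± 2.43 and babo at 17.2 ± 0.844, with gbb and tkv overlapping, as did tkv and babo. The lowest were wit at 9.06 ± 1.38, Dad at 6.43 ± 0.455 and dpp at 1.64 ± 0.256 CPM per kilobase. The ligand gbb and the receptor wit moved down the order and Mad moved to its top, while dpp was lowest in both genotypes.

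The ligands are known to come from somatic cells of the testis, and each gene was also set against the geometric mean of the 11 cyst and hub markers in the same library. The markers did not move together: eya of the cyst cells (-1.87), Fas3 of the hub (-1.77) and hh (-1.70) fell most, chinmo was higher (0.66), and zfh1 (0.21) and upd1 (0.01) were not called. The log2 fold changes of the 11 markers had a mean of -0.89 and a median of -1.20. The counts of upd1 were low, at 52 and 33 in bam mutant 1 and 2 and 6 and 18 in knockdown 1 and 2. It still weighed as much as any other marker in the geometric mean. Relative to this mean gbb differed by -0.12, dpp by -0.54, Dad by -0.50 and wit by -0.81 on the log2 scale, each a larger fall than that of the mean. For gbb the difference was near the spread of the knockdown libraries (SD 0.0912). Against the median of the markers, gbb (-1.03) fell less, and eya, Fas3 and hh each fell further than dpp or Dad did. Of these markers, eya and Fas3 also fell further than wit (-1.72). In contrast, tkv was higher by 0.27, babo by 0.65, put by 0.93, sax by 1.29 and Mad by 1.82 relative to the same mean. For each of the 9 genes the genotypes did not overlap on this scale, though for gbb bam mutant 2 (1.22) and knockdown 1 (1.21) nearly met. The share of all genes without overlap on this scale was not computed, and with TMM scaling it was 83.4%. The 11 germline markers also differed among themselves, with log2 fold changes from 0.36 to 1.10. Set against their geometric mean instead, Mad was higher by 0.21 and the other 8 genes were lower, from -0.32 for sax to -2.42 for wit. The part of cell composition in these differences was not tested.

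**Figure D4:**
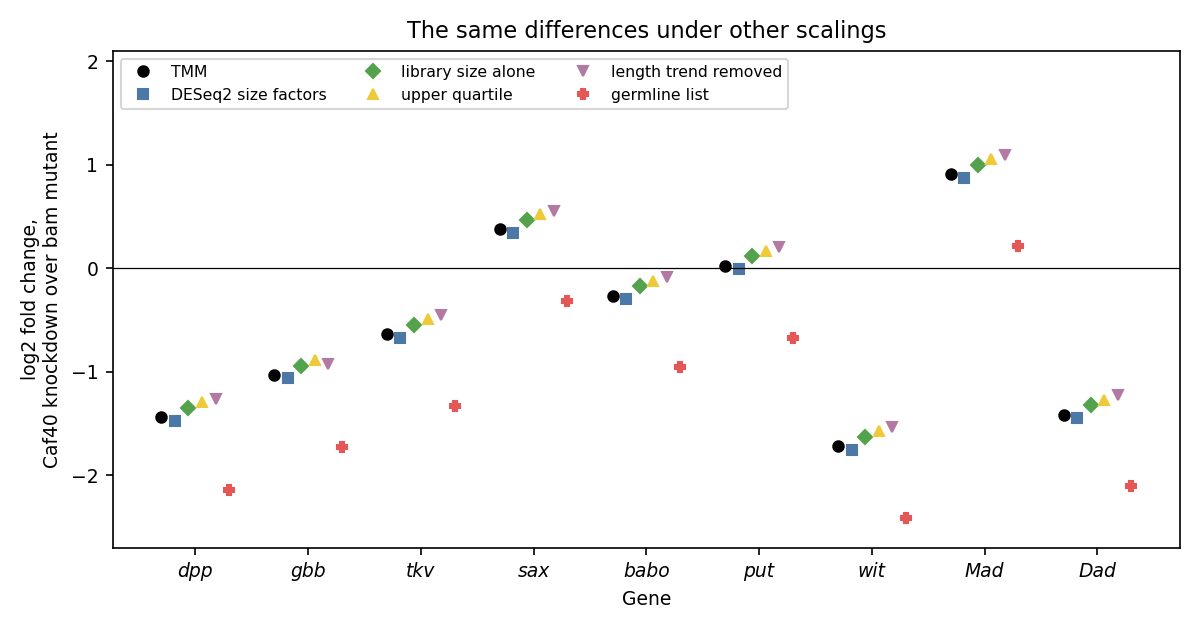
Log2 fold change of the 9 BMP signalling genes under TMM and 5 other scalings or corrections. The symbols of a gene lie close together except for scaling on the germline markers, which lowers every gene by about the same amount and turns sax to -0.32 and put to -0.67.

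The wider pathway was described from a list of 34 other genes of BMP and TGF-beta signalling, listed for their reported role. Counts were matched for 33 of them and 28 were tested, of which 7 were called higher, 15 lower and 6 neither way, with a median log2 fold change of -0.38. Over all genes tested 30.7% were called higher and 33% lower, with a median of 0.03. Of 9 extracellular modulators tested 7 were called lower and 0 higher, and of 4 further ligands tested 3 were called lower and 1 higher. Of 10 intracellular regulators tested 4 were called higher and 3 lower. No test set these groups against other genes.

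Among the ligands, daw, an activin-like ligand that signals through Babo, showed the largest fall. Its levels were 30.9 and 30.9 CPM for bam mutant 1 and 2 and 4.62 and 4.24 CPM for knockdown 1 and 2, a log2 fold change of -2.80 (SE 0.09, edgeR adjusted p = 3.07e-05). The ligand gene mav fell by 1.69 on the log2 scale (SE 0.25, edgeR adjusted p = 0.00261), from 29.2 and 27.1 CPM to 11.1 and 6.31 CPM. Actbeta, another activin-type ligand, was the exception and was higher, at 0.115 and 0.139 CPM in bam mutant 1 and 2 and 1.16 and 0.965 CPM in knockdown 1 and 2. Its log2 fold change was 3.05 (SE 0.45, adjusted p = 0.00255), but its level was low and it was not called without bam mutant 1 (2.82, edgeR adjusted p = 0.0999) or without bam mutant 2 (3.10, adjusted p = 0.0844). The ligand scw had 4 and 2 counts in the bam mutant libraries and 0 in each knockdown library, too few to be tested.

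Among the secreted and surface proteins that shape BMP gradients, the largest fall was that of tok, a Tolloid-type metalloprotease, from 38.6 and 43.5 CPM to 9.87 and 11.5 CPM (log2 fold change -1.94, SE 0.11). The proteoglycan gene dally, whose product binds Dpp at the cell surface, went from 72.0 and 67.2 CPM to 25.0 and 21.0 CPM (-1.60, SE 0.10). Levels of magu, a secreted modulator of BMP signalling, went from 32.6 and 34.9 CPM to 11.8 and 11.7 CPM (-1.52, SE 0.07). The BMP-binding protein gene cv-2 went from 26.1 and 28.6 CPM to 11.2 and 9.54 CPM (-1.40, SE 0.11). The modulator tsg was at 0 in every library. For tok, dally, magu and cv-2 every knockdown library was below every bam mutant library, and all were called lower under each of 13 alternative settings. Their Benjamini-Hochberg adjusted p from edgeR ran from 6.77e-05 for magu to 0.000258 for cv-2.

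On the nuclear side, brk, which encodes a repressor of Dpp target genes and is itself repressed by the pathway, was higher in the knockdown. It measured 9.70 and 11.0 CPM for bam mutant 1 and 2 and 23.0 and 24.2 CPM for knockdown 1 and 2, a log2 fold change of 1.19 (SE 0.10, edgeR adjusted p = 0.000331), and was still higher, at 0.50, when scaled on the germline markers. The bam gene, silenced by Mad in germline stem cells, stood at 20.8 and 20.7 CPM in bam mutant 1 and 2 and 267 and 249 CPM in knockdown 1 and 2 (3.64, SE 0.06, edgeR adjusted p = 1.95e-05). Per the study, the bam86 allele lacks most of the coding sequence of bam, so part of the counted sequence was missing in these males. As the bam mutant males carried altered alleles of this gene, an effect of the alleles and one of the pathway cannot be told apart. The gene twit, reported as a target of BMP signalling in motor neurons, was lower, from 19.7 and 17.1 CPM to 8.34 and 6.27 CPM (-1.33, SE 0.17, adjusted p = 0.0015). The wing targets bi, salr and vg were too low to be tested, at 0.413 CPM or less in every library. Of the other targets tested, ush was called lower and salm was not called.

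The rest of the wider list changed by less than 1 on the log2 scale, and its genes are named here after their values were seen. Called lower were the ligand myo (-0.94), the modulators nord (-0.98), cv (-0.60) and dlp (-0.32), the endocytic adaptor Sara (-0.45), spict (-0.56), ush (-0.54) and, at an edgeR adjusted p of 0.0488, the ubiquitin ligase Smurf (-0.16). The Smad of the activin branch, Smox, was called higher at 0.43, as were the kinase nmo at 0.68, the zinc finger cofactor shn at 0.60 and, at an adjusted p of 0.0485, Snoo at 0.25. Of 13 alternative settings, Smurf was called under 8, Snoo under 6, dlp under 10 and Sara under 12, with calls in either direction counted. The calls of Snoo include a fall with scaling on the germline markers. Scaling on the germline markers turned Smox and Snoo to called falls, at -0.27 and -0.45, and left nmo at -0.02 and shn at -0.09, neither called, and Smurf stood at 0.01 with the length trend removed. The genes not called were sog, tld, CtBP, Fkbp12, brat and salm, with log2 fold changes between -0.44 for tld and 0.62 for salm.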

How the data were processed

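The authors prepared libraries with a directional poly(A) kit, trimmed reads with Trim Galore, aligned them with STAR to dm6, and deposited raw read counts per gene for each library. Tool versions and the annotation used for counting were not given in the sources used here. The deposited counts on the strand that the kit reads were used. Reads on the opposite strand made up 2.47% to 2.54% of stranded gene counts. The 4 entries of each file that name no gene (26.9% to 30.8% of reads) entered neither the library sizes nor the tests. A table with 4 columns of normalised values per library was not used, because its column names did not match the labels, nor was a table of the authors' own comparison, which holds fold changes and p-values.

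Symbols were found for 17253 of the 17559 IDs, and coordinates and exonic lengths come from Ensembl release 115 (BDGP6.54, the assembly series of dm6). Genes were kept by filterByExpr, scaled by TMM and tested in R 4.3.3 by edgeR's quasi-likelihood test (edgeR 4.0.16, two-sided, genotype as the only term). Its p-values were adjusted by the Benjamini-Hochberg method across the 10854 genes kept, with 0.05 as the threshold of a call. The study used DESeq2, which was an alternative here (version 1.42.0). Standard errors are the absolute log2 fold change over the square root of the F statistic, and intervals use the moderated degrees of freedom (median prior 3.36). Limits from counts of 0 cover counting error only, since reads carried no molecular identifiers.

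The members and lists were given by pathway role, but were chosen with earlier results of these data known. All members were named, with every gene of the wider list called at a log2 fold change of 1 or more in size, and the bam gene. The sample titles gave the groups and the replicate numbers. Alternatives were upper quartile scaling, library size alone, scaling on germline markers, DESeq2, no filter beyond 1 count, at least 10 counts in every library, unstranded counts, a replicate block, removal of the length trend, and leaving out each library in turn.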

Additional observations from a re-analysis of the deposited data

Results flagged for a closer look

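Reads on the strand opposite to a gene were outside all comparisons, and at 2 of the 9 genes they were above 3 counts in each knockdown library and higher in CPM there than in either bam mutant library. Only the 9 genes were searched for this pattern, in this direction alone, and its share among all genes is not known. Opposite-strand levels went the other way, also without overlap, at sax, put, dpp and Mad. Over sax there were 134 and 111 opposite-strand counts (1.18 and 1.19 CPM) in bam mutant 1 and 2. Knockdown 1 and 2 had 19 and 22 (0.631 and 0.758 CPM). At dpp and Mad no library had more than 13. Over gbb, which no annotated exon overlaps on the other strand, there were 40 and 38 opposite-strand counts in bam mutant 1 and 2 and 38 and 31 in knockdown 1 and 2. These correspond to mean levels of 0.381 CPM for bam mutant libraries against 1.17 CPM for knockdown libraries, or 0.525% to 0.626% and 3.39% to 3.57% of the stranded reads over gbb. Over Dad there were 13 and 5 opposite-strand counts in bam mutant 1 and 2 and again 13 and 5 in knockdown 1 and 2, a mean of 0.0842 CPM and 0.302 CPM. These counts are small beside the 692 to 7580 counts of Dad itself, and the difference between the genotypes was not tested.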

How the results depend on the processing

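The genes dpp, gbb, tkv, wit, Mad and Dad were called in the same direction under all 13 alternatives, and sax and babo under 12 of 13. Scaling on the germline markers turned sax to -0.32 and put to -0.67. Removing the length trend left babo at -0.09, not called. For put the sign also turned with DESeq2 (-0.010) and with no filter beyond 1 count (-0.13), and leaving out 1 library gave -0.10 to 0.10, so no direction can be given for put. Of the 9 genes, 7 (length trend removed) to 9 (upper quartile, library size alone, germline scaling) were called. Of all genes called, 48.2% were higher with TMM, 8.42% with germline scaling, 38.3% with no filter beyond 1 count, and 57.4% with upper quartile scaling, where the medians of all genes shifted by -0.69, -0.15 and 0.15. The median of the 9 genes less that of all genes was -0.67 with TMM and between -0.49 and -0.77 without 1 library.

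With the replicate number as a block, 8 of the 9 genes were called (2 higher and 6 lower), with 6792 of all genes and 20 of the wider list. Same-numbered libraries deviated together only weakly (r = 0.264 across genes, 2 pairs), so the numbers were not taken as pairs. Fits without 1 library assume that the lone library varies like the other genotype. Depth in the knockdown limits the low genes, and a member's replicates differed by at most 0.106 (bam mutant) and 0.308 (knockdown) on the log2 scale.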
